A study of Homo sapiens with 9 samples.

Results

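The circadian clock genes described here are 10 core clock and clock output genes of HEK293T cells, chosen by name: PER1, PER2, PER3, CRY1, CRY2, NR1D1, NR1D2, DBP, BHLHE40 and CLOCK. All 10 were found among the 60664 genes of the count table, and all 10 passed the filter on low counts, which kept 21139 genes. HEK293T is a line derived from human embryonic kidney. Every library came from it, with no added transgene, knockout or drug named for any group, and the cells were grown at 37 °C. The sample titles call the untreated cells wild-type and name no genotype for the heated groups. Total RNA depleted of ribosomal RNA was sequenced from 5 groups. H1 cells were taken at the end of 1 h at 43 °C (2 libraries), R1 cells after the same heating and 1 h back at 37 °C (2 libraries), R6 cells after 6 h of recovery (2 libraries) and R18 cells after 18 h of recovery (1 library), and untreated cells were not heated (2 libraries). The sources used here name no step that sets all cells to 1 clock phase, such as a serum or hormone pulse, and give no hour of collection or untreated culture matched in time to R18. Heat and hours in culture therefore cannot be told apart.

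The clock of mammalian cells is a loop of transcription and translation. CLOCK, paired with BMAL1, binds E-boxes and switches on the PER and CRY genes, whose proteins enter the nucleus and hold CLOCK and BMAL1 back. In a second loop NR1D1 and NR1D2, also known as REV-ERB alpha and beta, repress BMAL1, while the ROR receptors activate it. DBP and its relatives TEF and HLF carry the rhythm to output genes through D-boxes, and BHLHE40, also known as DEC1, competes for E-boxes as a repressor. In mouse cells and tissues, a pulse of heat can shift this clock, and heat shock factor 1 takes part in that resetting.

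Stretches of promoter are shown for 5 clock genes to make the elements of this loop visible. The letters come from RefSeq promoter windows on GRCh38.p14, each reaching from 250 bases before to 50 bases after an annotated start. The 10 clock genes have 14 such windows, since PER3, CRY2, NR1D2 and CLOCK each have a second start. The 5 stretches, chosen after the gene values and matches were seen, run from 19 bases before the first match to 19 bases after the last, within the window and at most 10 bases past the start. Capitals mark the E-box CACGTG, the D-box TTATGTAA or TTACGTAA, and the core of the ROR element, AGGTCA, each searched on both strands.
PER1 E-box and ROR core, chr17:8152524-8152596, minus strand: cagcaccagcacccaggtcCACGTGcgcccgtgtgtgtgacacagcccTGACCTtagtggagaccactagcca
PER2 D-box at the start site, chr2:238288601-238288632, minus strand: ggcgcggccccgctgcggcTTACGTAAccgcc
PER3 D-box, chr1:7784095-7784140, plus strand: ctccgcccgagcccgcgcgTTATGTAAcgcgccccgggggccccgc
NR1D2 D-box and 2 E-boxes, chr3:23945908-23946040, plus strand: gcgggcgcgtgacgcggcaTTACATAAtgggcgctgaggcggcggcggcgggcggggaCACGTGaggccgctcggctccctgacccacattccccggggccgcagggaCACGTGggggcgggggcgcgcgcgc
BHLHE40 E-box, chr3:4979187-4979216, plus strand: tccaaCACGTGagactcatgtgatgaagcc

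The PER1, PER3 and NR1D2 stretches held no base of a GENCODE exon, against 9 of the 32 bases of the PER2 stretch and all 30 of the BHLHE40 stretch. The PER1, PER2 and NR1D2 stretches lie inside the span of their gene in the deposited table, that of NR1D2 before its second annotated start, and the PER3 and BHLHE40 stretches lie before the span. An E-box occurred in 3 of the 14 clock gene windows (PER1, NR1D2 and BHLHE40), against 7.26% of all 35116 RefSeq windows. A D-box occurred in 3 of the 14 (PER2, PER3 and NR1D2), against 1.01% of all windows. The ROR core was found in 3 of the 14, those of PER1 and both of CRY2, against 13.83% of all windows. The full cAMP response element TGACGTCA was in 0 of the 14 windows (1.85% of all), and its shorter core TGACG in 7 (24.55% of all). A heat shock element pair, GAANNTTC or TTCNNGAA, was in 1 of the 14, past a CRY2 start (13.49% of all), and a pair with a further unit in 0 (0.49% of all). These matches describe letters in these windows and no binding was measured.

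Library totals ran over 1.63-fold, between 3814195 and 6221613 counts, and every read of a pair was counted as 1, so that 81.8% to 87.6% of the counts above 0 were even. The R18 library stood apart. It held the highest level of the 9 libraries for 19.97% of the genes tested and the lowest for 20.3%, whereas each other library held the highest for 7.51% to 13.8% and the lowest for 7.29% to 14.6%. With 1 library R18 has no replicate check, and its tests assume that it varies like the other groups. No source says whether the 2 libraries of the other groups came from separate cultures, so the p-values measure only the spread between these libraries, which may be technical. The heat labels were checked with DNAJB1, a heat-induced co-chaperone, which had 1910 and 2096 CPM in H1 libraries and 3684 and 3825 CPM in R1 libraries, against 69.5 and 80.4 CPM in untreated libraries. Of the line's markers given here, PAX2, EYA1, NEFM, NEFL, KRT8, KRT18 and VIM were all above the filter, while the 9 markers of liver, blood, fibroblasts and squamous cells (ALB, APOA1, AFP, PTPRC, HBB, COL1A2, DCN, KRT5 and KRT14) fell below it.

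Levels are given as CPM, the counts of a gene per 1000000 counts of its library's TMM-scaled total, and changes as log2 fold changes with their standard error (SE) from edgeR's quasi-likelihood test, called at an adjusted p under 0.05 over all genes tested. The calls among the clock genes were fewest at the end of heating and most numerous, mainly upwards, after 18 h. At H1, 0 of the 10 rose and 0 fell in edgeR's test (0 in DESeq2), against 3.43% of all genes tested that rose and 1.77% that fell, and at an unadjusted p under 0.05 there were 1 higher and 2 lower. At R1, PER2, CRY1 and CLOCK rose (3 of 10, against 10.7% of all genes tested) and CRY2 fell (1 of 10, against 9.53%). At R6, 0 rose (against 3%) and NR1D2 and BHLHE40 fell (2 of 10, against 4.03%). At R18, PER1, PER2, PER3, CRY2, NR1D2 and DBP rose (6 of 10, against 4.58% of all genes tested) and CLOCK and BHLHE40 fell (2 of 10, against 6.43%). The median log2 fold change of the 10 clock genes was 0.76 at R18, against -0.03 over all genes tested, and at H1, R1 and R6 it was 0.03, 0.02 and 0.01. In this bulk RNA, a change in which cells express a gene and a change in RNA per cell cannot be told apart.

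**Figure D1:**
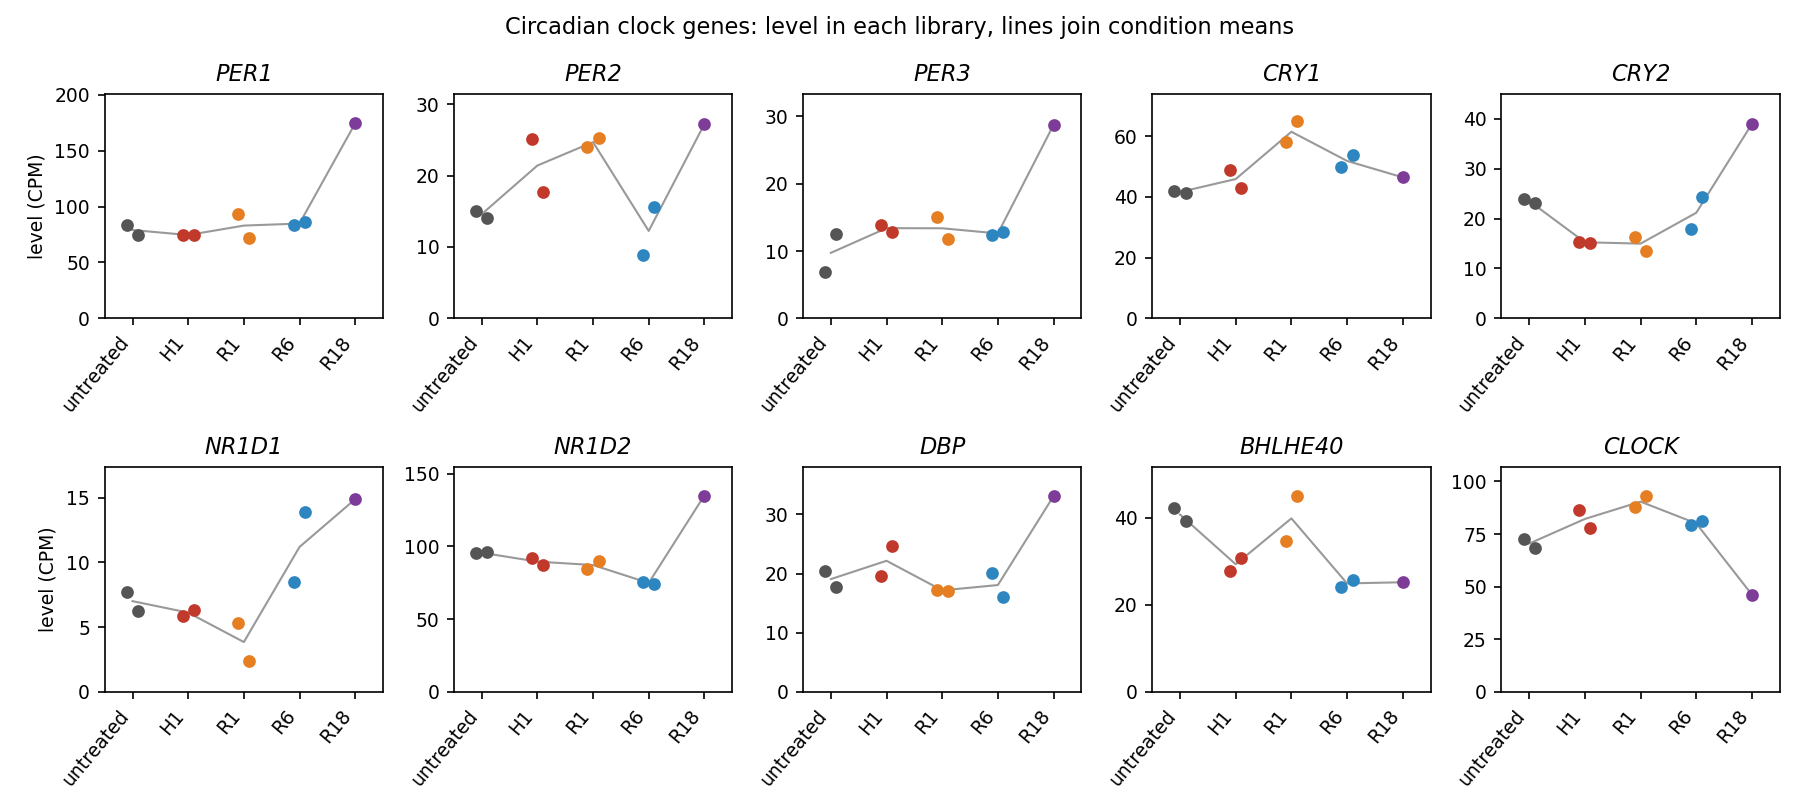
Level of each circadian clock gene in CPM (y axis, from 0) in each library (points) by condition (x axis, untreated to R18), with lines joining condition means. The R18 point is the highest of the 9 libraries for 7 of the 10 genes and the lowest for CLOCK.

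**Figure D2:**
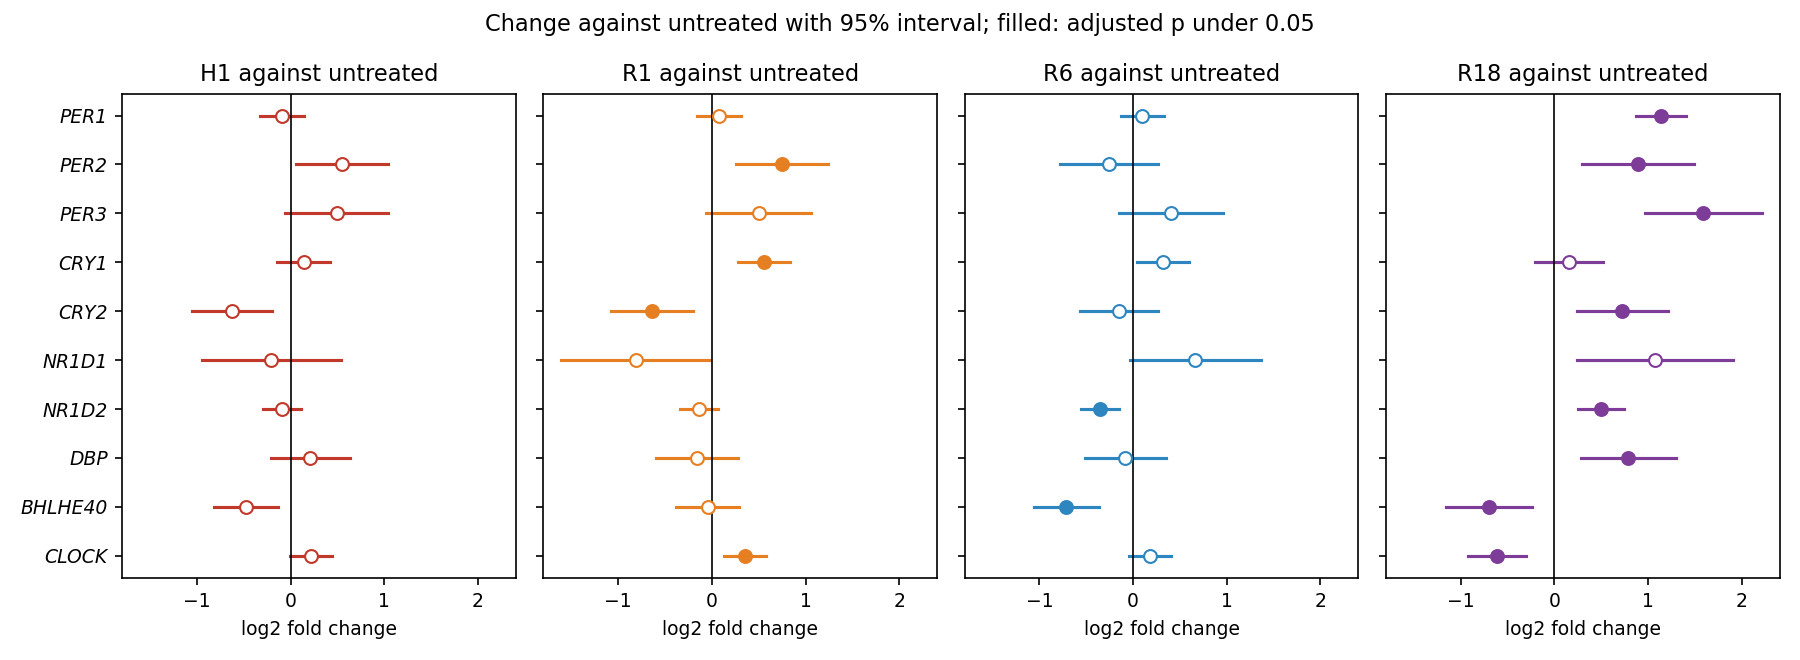
Log2 fold change against untreated (x axis) of the 10 clock genes (y axis) at H1, R1, R6 and R18, with 95% intervals as lines and filled points where the adjusted p was under 0.05. No point is filled at H1, 4 at R1, 2 at R6 and 8 at R18.

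The 3 PER genes encode the partners that carry CRY proteins into the repressor complex. PER1, the most abundant of them, had 83.4 and 74.6 CPM in untreated libraries, 74.3 and 74.7 CPM at H1, 93.7 and 72.2 CPM at R1, 83.5 and 86.1 CPM at R6 and 174 CPM at R18. The R18 library lay above all the others. Both R6 libraries were just above both untreated ones, while the H1 and R1 libraries overlapped them. PER1 rose 2.202-fold at R18 against untreated (log2 fold change 1.14, SE 0.13, adjusted p = 2.46e-07, edgeR's quasi-likelihood test). At H1, R1 and R6 its log2 fold changes against untreated were -0.09, 0.08 and 0.10, none of them called, and their 95% intervals lay between -0.32 and 0.33.

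PER2, an early responder to many stimuli in other cells, had 15.1 and 14.1 CPM in untreated libraries, 25.1 and 17.7 CPM at H1, 24.1 and 25.3 CPM at R1, 8.83 and 15.6 CPM at R6 and 27.2 CPM at R18. Both H1 libraries, both R1 libraries and the R18 library were above both untreated libraries, and the R6 libraries overlapped them. The change was 0.55 at H1 (SE 0.24, adjusted p = 0.221 in edgeR's test; 0.27 without H1 replicate 1) and 0.75 at R1 (SE 0.24, adjusted p = 0.0244). PER2 was lower at R6 than at R1 (log2 fold change -1.01, SE 0.24, adjusted p = 0.00328) and higher at R18 than at R6 (1.15, SE 0.29, adjusted p = 0.00639). At R18 it was also above untreated (0.89, SE 0.29, adjusted p = 0.0439). The call at R1 was lost with DESeq2 (adjusted p = 0.0513) and without untreated replicate 1 (0.0885), untreated replicate 2 (0.112), R1 replicate 1 (0.0863) or R1 replicate 2 (0.0889), and both calls against R6 or R1 were lost without R6 replicate 1 (log2 fold change -0.64, adjusted p = 0.146 for R6 against R1, and 0.80, adjusted p = 0.101 for R18 against R6). At R18 the call against untreated was lost with DESeq2 (adjusted p = 0.0673) and without untreated replicate 1 (0.0945), untreated replicate 2 (0.122) or R1 replicate 2 (0.0514).

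PER3, the PER gene least needed for rhythm in mice, had 6.93 and 12.5 CPM in untreated libraries, 13.9 and 12.9 CPM at H1, 15.04 and 11.7 CPM at R1, 12.4 and 12.9 CPM at R6 and 28.7 CPM at R18. The untreated libraries differed more from each other than did the pairs at H1, R1 or R6, and R18 was far above all of them. PER3 rose 3.01-fold at R18 against untreated (log2 fold change 1.59, SE 0.31, adjusted p = 0.000551 in edgeR's test), the largest of the 10 changes, and 1.19 on the log2 scale against R6 (SE 0.29, adjusted p = 0.00508). Over the alternatives the change against untreated ranged from 1.22 to 2.07. PER3 exons share 868 bases (10.68%) with those of UTS2 on the opposite strand, which had 0 to 2 counts a library. Without untreated replicate 2, PER3 was also called at R1, with a log2 fold change of 0.97 in place of 0.50 and an adjusted p of 0.0426 in place of 0.211.

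The CRY genes encode the main repressors of the loop, and at R1 CRY1 rose while CRY2 fell. CRY1 had 42.0 and 41.2 CPM in untreated libraries, 48.8 and 42.9 CPM at H1, 58.0 and 64.9 CPM at R1, 49.8 and 53.9 CPM at R6 and 46.4 CPM at R18. Both R1 libraries were the highest of the 9, and both R6 libraries still lay above the untreated ones. CRY1 rose 1.47-fold at R1 against untreated (log2 fold change 0.56, SE 0.14, adjusted p = 0.00349 in edgeR's test), and this call held in all 19 alternatives. At R18 its change was 0.16 (95% interval -0.20 to 0.52), not called.

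CRY2 had 23.9 and 23.2 CPM in untreated libraries, 15.3 and 15.2 CPM at H1, 16.4 and 13.6 CPM at R1, 18.0 and 24.3 CPM at R6 and 39.0 CPM at R18. All 4 libraries of H1 and R1 were below the untreated ones, R6 overlapped them and R18 was above every other library. The change was -0.63 at H1 (SE 0.21, adjusted p = 0.0827 in edgeR's test) and -0.64 at R1 (SE 0.21, adjusted p = 0.0314), and at R18 it was 0.73 (SE 0.24, adjusted p = 0.0455). The R1 call was lost with DESeq2 (adjusted p = 0.0658) and without untreated replicate 1 (0.122), untreated replicate 2 (0.0837), R1 replicate 1 (0.0614) or R1 replicate 2 (0.164). The R18 call was lost with DESeq2 (0.0739), with no filter on low counts (0.0746) and without untreated replicate 1 (0.0955), untreated replicate 2 (0.106), H1 replicate 1 (0.0582) or H1 replicate 2 (0.0534). Against R6, CRY2 was higher at R18 by 0.88 (SE 0.24, adjusted p = 0.0104), with an adjusted p of 0.108 without R6 replicate 1.

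NR1D1 and NR1D2 encode heme-binding nuclear receptors that repress transcription. NR1D1 had 7.75 and 6.26 CPM in untreated libraries, 5.88 and 6.36 CPM at H1, 5.35 and 2.34 CPM at R1, 8.48 and 13.9 CPM at R6 and 14.9 CPM at R18. It had the lowest counts of the 10 genes, 10 in R1 replicate 2 and at most 80 in any library. Each read of a pair was counted, so the sequenced fragments were fewer than these counts. NR1D1 was 2.79-fold higher at R6 than at R1 (log2 fold change 1.48, SE 0.36, adjusted p = 0.0044 in edgeR's test), with log2 fold changes of 1.06 (adjusted p = 0.0878) without R1 replicate 2 and 1.09 (0.128) without R6 replicate 2. Against untreated its change at R18 was 1.07 (95% interval 0.24 to 1.91, adjusted p = 0.0896), not called. Its exons share 473 bases, 17.98% of their length, with those of THRA on the opposite strand, and counting ignored strand. Reads that fell on both genes were not counted for either. THRA, a thyroid hormone receptor gene, had means of 48.2 CPM at R18 and 56.2 CPM in untreated libraries, with a change of -0.22 (SE 0.17, adjusted p = 0.472), and 54.0 CPM at R6 against 44.4 CPM at R1 (0.27, SE 0.13, adjusted p = 0.189).

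NR1D2 had 95.2 and 96.0 CPM in untreated libraries, 91.8 and 87.2 CPM at H1, 84.5 and 89.8 CPM at R1, 75.6 and 74.1 CPM at R6 and 135 CPM at R18. Its libraries after heating all lay below the untreated ones up to R6, and R18 lay above all of them. It fell by 0.35 on the log2 scale at R6 against untreated (SE 0.10, adjusted p = 0.0263 in edgeR's test) and rose at R18, by 0.50 against untreated (SE 0.12, adjusted p = 0.00516) and by 0.85 against R6 (SE 0.12, adjusted p = 6.05e-06). Both rises held in all 17 alternatives. The fall at R6 was lost with no filter on low counts (adjusted p = 0.0857) and without untreated replicate 1 (0.113), untreated replicate 2 (0.106), R6 replicate 1 (0.140) or R6 replicate 2 (0.215).

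DBP encodes an activator that binds D-boxes and is a direct E-box target in mouse liver. DBP had 20.4 and 17.7 CPM in untreated libraries, 19.6 and 24.7 CPM at H1, 17.2 and 17.1 CPM at R1, 20.1 and 16.0 CPM at R6 and 33.1 CPM at R18. The R18 library was the highest, and R1 was just below the untreated libraries. DBP rose at R18 by 0.79 against untreated (SE 0.25, adjusted p = 0.0360 in edgeR's test) and by 0.87 against R6 (SE 0.24, adjusted p = 0.0141). The call against untreated was lost with DESeq2 (adjusted p = 0.0557), with no filter on low counts (0.0560) and without untreated replicate 2 (0.117), and that against R6 without R6 replicate 2 (0.120). SPHK2, whose exons share 661 bases with those of DBP on the opposite strand (10.19% of the DBP exons), changed by 0.23 at R18 against untreated (SE 0.23, adjusted p = 0.590).

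BHLHE40, the E-box repressor, had 42.2 and 39.1 CPM in untreated libraries, 27.8 and 30.7 CPM at H1, 34.6 and 45.01 CPM at R1, 24.0 and 25.7 CPM at R6 and 25.1 CPM at R18. The H1, R6 and R18 libraries were below both untreated libraries, and the R1 libraries lay on either side of them. It fell by 0.71 at R6 against untreated (SE 0.17, adjusted p = 0.00761 in edgeR's test) and by 0.67 at R6 against R1 (SE 0.17, adjusted p = 0.00643), and its change at H1 was -0.48 (SE 0.17, adjusted p = 0.104). The change at R18 was -0.70 (SE 0.22, adjusted p = 0.0411), a call lost in 11 of 17 alternatives, among them DESeq2 (0.0701) and those without untreated replicate 1 (0.141), untreated replicate 2 (0.0672), H1 replicate 1 (0.0525), H1 replicate 2 (0.0589), R6 replicate 1 (0.0545) or R6 replicate 2 (0.0549). The fall at R6 was lost without untreated replicate 1 (0.0913), R6 replicate 1 (0.0913) or R6 replicate 2 (0.0604), and that against R1 without R1 replicate 2 (0.120) or R6 replicate 1 (0.0794). Its antisense partner BHLHE40-AS1 shares 451 bases of exon with it (12.83%) and had means of 0.853 to 2.57 CPM.

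CLOCK encodes the activating partner of BMAL1. CLOCK had 72.6 and 68.4 CPM in untreated libraries, 86.6 and 77.7 CPM at H1, 87.7 and 93.1 CPM at R1, 79.1 and 81.0 CPM at R6 and 46.2 CPM at R18. All 6 libraries of H1, R1 and R6 were above the untreated ones, and R18 was the lowest of the 9. It rose 1.28-fold at R1 (log2 fold change 0.35, SE 0.11, adjusted p = 0.0193 in edgeR's test) and fell at R18, by 0.61 against untreated (SE 0.15, adjusted p = 0.00653) and by 0.79 against R6 (SE 0.15, adjusted p = 0.000312). Both falls held in all 17 alternatives. The rise at R1 was lost on library size alone (adjusted p = 0.0553) and without untreated replicate 2 (0.0944), R1 replicate 1 (0.0513) or R1 replicate 2 (0.0987). Its exons share 76 bases (0.659%) with those of TMEM165 on the opposite strand, which changed by -0.19 at R18 against untreated (SE 0.15, adjusted p = 0.460) and by -0.56 at H1 (SE 0.12, adjusted p = 0.0031). CLOCK moved opposite to PER1, PER3 and NR1D2 at R18. Its promoter windows held none of the E-box, D-box or ROR core, and neither did those of CRY1, NR1D1 or DBP. The scan took only these exact letters within the windows, so other forms of the motifs and sites elsewhere were not seen. A link between these motifs and the changes was not tested.

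Between successive times, the largest number of changes fell between R6 and R18. In R1 against H1, 1 of the 10 clock genes rose, CRY1 (log2 fold change 0.42, SE 0.13, adjusted p = 0.0358 in edgeR's test, against 6.35% of all genes tested), and 0 fell (against 5.08%). That CRY1 call was lost with DESeq2 (adjusted p = 0.0628) and without H1 replicate 1 (0.0754), H1 replicate 2 (0.323), R1 replicate 1 (0.0722) or R1 replicate 2 (0.199). In R6 against R1, NR1D1 rose (1 of 10, against 6.43%) while PER2 and BHLHE40 fell (2 of 10, against 8.93%). In R18 against R6, PER1 (log2 fold change 1.04), PER2, PER3, CRY2, NR1D2 and DBP rose (6 of 10, against 6.28%) and CLOCK fell (1 of 10, against 7.65%). The comparisons with untreated share the untreated libraries, and those with R6 and untreated share the single R18 library, so the R18 counts are not independent of each other.

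Exon length here joins all annotated exons of a gene, for DBP 6485 bases of a 7350-base span. It can exceed the length of the transcripts present, and it includes bases shared with other genes. Ranks between genes are therefore approximate. Divided by this length, NR1D2 was the most abundant of the clock genes in untreated cells at 16.5 ± 0.0968 CPM per kilobase (SD, n = 2 here and below). It was followed by BHLHE40 at 11.6 ± 0.618 CPM per kilobase and PER1 at 11.3 ± 0.886, whose libraries overlapped. CRY1 had 8.70 ± 0.115 CPM per kilobase, CLOCK 6.11 ± 0.259 and CRY2 3.80 ± 0.0725, each apart from its neighbours in both libraries. At the low end DBP (2.94 ± 0.289 CPM per kilobase) and NR1D1 (2.66 ± 0.400) overlapped, and PER2 (2.12 ± 0.103) and PER3 (1.197 ± 0.486) were lowest. At R18 the order of levels per kilobase was led by PER1 at 24.9 CPM per kilobase and NR1D2 at 23.3, and CLOCK, ranked 5 in untreated cells, ranked 8 at 4.005 CPM per kilobase. PER3 was lowest in untreated, H1, R6 and R18 cells, and NR1D1 was lowest at R1, where its libraries overlapped those of PER3. At R6 the libraries of PER2 and PER3 overlapped.

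**Figure D3:**
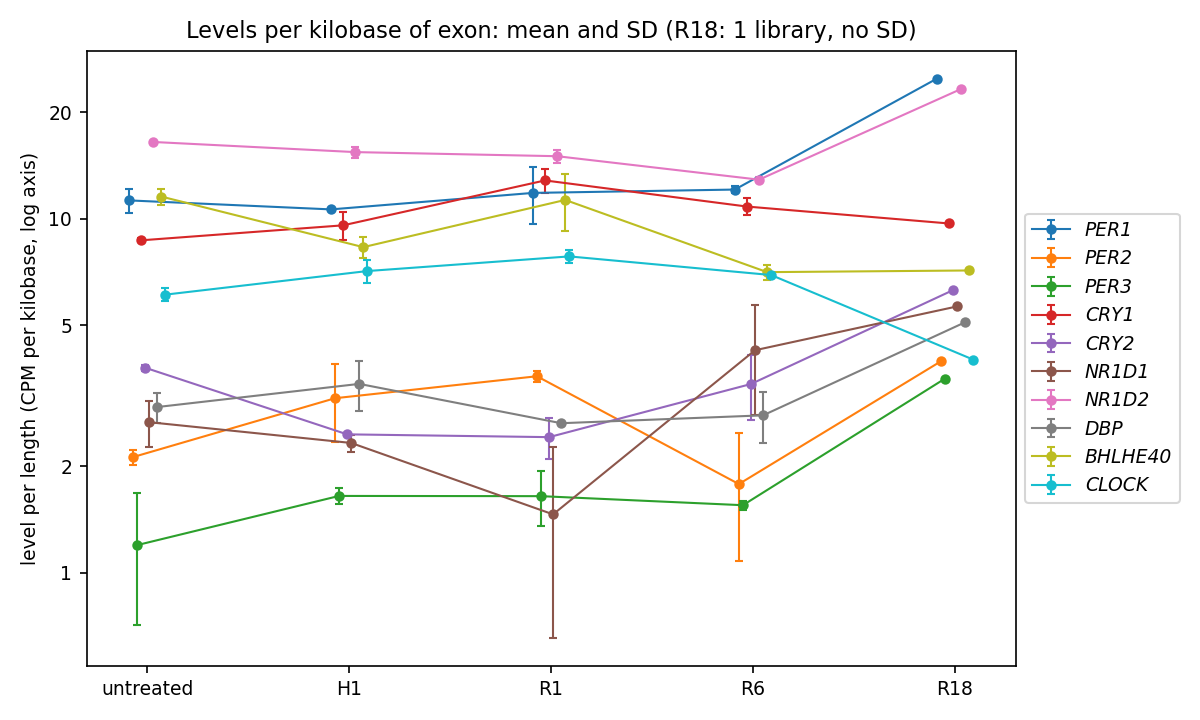
Mean level per kilobase of exon (y axis, log scale, CPM per kilobase) of the 10 clock genes by condition (x axis), with SD bars over 2 libraries and none at R18, which has 1. PER1 and NR1D2 separate upwards at R18 (24.9 and 23.3 CPM per kilobase), and CLOCK drops to 4.005.

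Of the other clock genes, 34 were listed and 30 passed the filter. Among those not tested were CIART and PASD1 of the loop partners and CSNK2B of the kinases. CSNK2B had 0 to 5 counts a library. Reads on several genes or places were left out of the counts, and whether this lowered CSNK2B was not tested. Over the 30, 4 rose and 0 fell at H1 (against 3.43% and 1.77% of all genes tested) and 7 rose and 5 fell at R1 (against 10.7% and 9.53%). At R6, 0 rose and 2 fell (against 3% and 4.03%), and at R18, 4 rose and 3 fell (against 4.58% and 6.43%). Their median log2 fold change at R18 was -0.04, against 0.76 for the 10 clock genes described above and -0.03 for all genes tested. The 10 genes and the lists were chosen with earlier results of these data known, and R18 is 1 library. These medians are therefore a description, and a difference between the lists was not tested.

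Among the 7 loop partners tested, 3 fell at R1 (against 9.53% of all genes tested), 1 fell at R6 (against 4.03%) and 1 rose at R18 (against 4.58%). BMAL1, the partner of CLOCK, had means of 9.60 ± 0.347 CPM at R1 and 15.3 ± 2.04 CPM in untreated cells (log2 fold change -0.68, SE 0.25, adjusted p = 0.0547 in edgeR's test). Its relative BMAL2 fell by 0.70 at R1 (SE 0.19, adjusted p = 0.00826). NPAS2, which can act for CLOCK, fell by 0.69 at R1 (SE 0.25, adjusted p = 0.0497), at the edge of the threshold. Calls of these other clock genes were not checked under the alternatives, which covered the 10 clock genes described above. TIMELESS, which also acts at replication forks, fell by 0.33 at R1 (SE 0.08, adjusted p = 0.00287) and by 0.35 at R6 (SE 0.08, adjusted p = 0.00489). RORA, the activator of BMAL1, had 65.4 CPM at R18, against 33.0 and 28.4 CPM in untreated libraries, and rose (log2 fold change 1.08, SE 0.21, adjusted p = 0.000493). RORB and BHLHE41, a relative of BHLHE40, were not called at any time, with changes at R18 of 0.26 (SE 0.28) and -0.99 (SE 0.45).

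Of the 7 output genes, all tested, 1 rose and 0 fell at H1 (against 3.43% and 1.77% of all genes tested). At R1, 1 rose and 1 fell (against 10.7% and 9.53%), and at R6, 0 rose and 1 fell (against 3% and 4.03%). At R18, 1 rose and 1 fell (against 4.58% and 6.43%). TEF, the D-box activator related to DBP, had 32.8 CPM at R18, against 8.16 and 7.31 CPM in untreated libraries. TEF rose at R18 (log2 fold change 2.08, SE 0.32, adjusted p = 2.91e-05 in edgeR's test), and at H1, R1 and R6 its changes were 0.07, -0.0016 and 0.26, none called. HLF, the other relative of DBP, had 8 to 54 counts a library and was not called at any time. Its change at R18 was 0.03 (SE 0.52, adjusted p = 0.983 in edgeR's test). WEE1, a cell cycle kinase under E-box control in mouse liver, rose at H1 (0.82, SE 0.10, adjusted p = 9.06e-07) and R1 (1.10, SE 0.10, adjusted p = 8.11e-10), and at R18 its change was 0.30 (adjusted p = 0.139). TSC22D3, a target of glucocorticoid receptor, fell at R1 (-0.90, adjusted p = 8.42e-08), R6 (-0.90, adjusted p = 3.01e-07) and R18 (-0.49, adjusted p = 0.0105).

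The 16 tested kinases, phosphatases, ubiquitin ligases and cofactors of PER and CRY gave 3 higher and 0 lower at H1 (against 3.43% and 1.77% of all genes tested) and 6 higher and 1 lower at R1 (against 10.7% and 9.53%). They gave 0 in either direction at R6 (against 3% and 4.03%) and 2 higher and 2 lower at R18 (against 4.58% and 6.43%). CSNK1D and CSNK1E, the casein kinases that mark PER proteins for breakdown, rose at H1 by 0.47 and 0.45, at R1 by 0.53 and 0.46 and at R18 by 0.36 and 0.59 (largest adjusted p = 0.0197, CSNK1D at R18, edgeR's test). CSNK1A1, another casein kinase of the list, was not called at H1 (0.10), R1 (0.12) or R6 (-0.07). At R18 it fell by 0.36 (SE 0.11, adjusted p = 0.0375, edgeR's test). All of these changes were under 1 in size on the log2 scale.

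**Figure D4:**
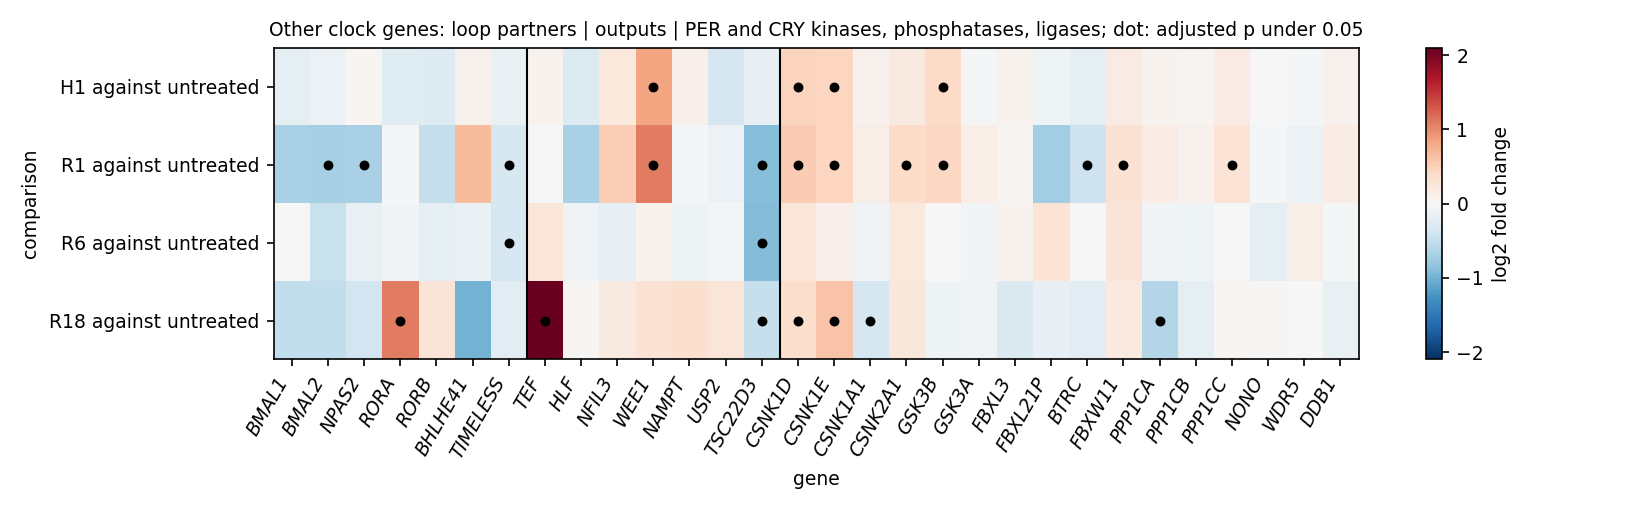
Log2 fold change against untreated (colour) of the 30 other clock genes tested (x axis) at H1, R1, R6 and R18 (y axis), with a dot where the adjusted p was under 0.05. The darkest cell is TEF at R18 (2.08), and the dots are most numerous at R1, where 7 genes rose and 5 fell.

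The genes most like each clock gene in pattern were those with the smallest Euclidean distance over the 4 log2 fold changes against untreated, among 11746 genes, as a description over 9 libraries. NR1D1, called at none of the 4 times, was left out. PER1 lay nearest to SEC24D at a distance of 0.106, and CRY1 to SLC20A1 at 0.0469. For CLOCK they were ERI1 (0.0878), ELOF1 (0.105) and TOP1 (0.109), and for DBP the nearest was ECEL1 (0.0594). NR1D2 was closest to FAM234B (0.0905), BHLHE40 to C3orf14 (0.136) and CRY2 to MXD3 (0.232). PER2 lay nearest to ENSG00000284946 at 0.274, followed by ID3 at 0.285. For PER3 the nearest was ENSG00000273599 at 0.223, followed by N4BP3 at 0.249.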

How the data were processed

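HEK293T RNA was profiled in 9 libraries. Per the submitters' processing notes, the tools were FastQC 0.11.8, cutadapt 4.1, HISAT2 2.2.1, featureCounts 2.0.2 and DESeq2 1.38.3, on GRCh38. The deposited table holds raw counts per gene, which the authors made with featureCounts on Ensembl release 104 exons, without strand, each read of a pair counted and reads on several genes or places left out. Mitochondrially encoded genes have 0 counts throughout. Symbols came from a name list that held 60463 of 60664 identifiers (99.7%).

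Counts were tested with edgeR 4.0.16 (R 4.3.3): TMM scaling, filterByExpr by condition (minimum count 10, total 15), 1 coefficient per condition over all 9 libraries, quasi-likelihood F test and Benjamini-Hochberg adjustment over 21139 genes, called under 0.05. SE is the log2 fold change divided by the square root of F. Totals of 3814195 to 6221613 gave the clock genes 10 to 680 counts a library, with a common biological coefficient of variation of 0.0905. The scripts were tested on simulated data. The 19 alternatives used other scaling, DESeq2 1.42.0, other filters, fewer libraries, a replicate block and halved counts. Named were all 10 clock genes, all loop partners tested and other listed clock genes called with a log2 fold change of 1 or more. HLF, CSNK1A1, CSNK1D, CSNK1E and TSC22D3 were named after their values were seen. Also named were genes whose exons overlap, and the tested genes nearest in profile (average log2 CPM of at least 3). Members and lists were chosen with earlier results of these data known. RefSeq promoter windows were on GRCh38.p14. Values of 2 listed genes are not reported here.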

Additional observations from a re-analysis of the deposited data

Results flagged for a closer look

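Steps of clock genes between successive times were called by edgeR contrasts of those times (quasi-likelihood test, adjusted p under 0.05 over all genes tested). Since untreated libraries cancel in such a contrast, the log2 fold change between times is the difference of the effects against untreated. CRY1 differed by 0.42 for R1 against H1, where 6.35% of all genes tested rose and 5.08% fell. For R6 against R1, PER2 differed by -1.01, NR1D1 by 1.48 and BHLHE40 by -0.67, while 6.43% of all genes tested rose and 8.93% fell. In R18 against R6, 6.28% of all genes tested rose and 7.65% fell. There PER1 differed by 1.04, PER2 by 1.15, PER3 by 1.19, CRY2 by 0.88, NR1D2 by 0.85, DBP by 0.87 and CLOCK by -0.79. The calls of PER1, PER3, NR1D2 and CLOCK held in every alternative, and each of the other calls was lost in 1 or more. The R18 values rest on 1 library, which was the highest of the 9 for 7 of the 10 clock genes and for 19.97% of all genes tested.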

How the results depend on the processing

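For clock genes, 935 log2 fold changes were recomputed under the alternatives. Of these, 868 kept their side of the threshold, 65 lost the call and 2 gained it. The gains were PER3 at R1 without untreated replicate 2 and NR1D1 at R18 when only the conditions compared were fitted. A called direction reversed in 0 cases. Some changes that were not called did change sign, such as PER2 at R6 against untreated, which ranged from -0.71 to 0.12. Calls that held throughout were CRY1 at R1 and, for R18 against untreated and against R6, PER1, PER3, NR1D2 and CLOCK. The number of clock genes called at H1 was 0 under every alternative. For R1 against untreated it was 4, with 2 under DESeq2 and 1 to 4 when 1 library was left out. For R6 against untreated it was 2, with 1 under no filter on low counts and 0 to 2 without 1 library. For R18 against untreated it was 8, with 4 under DESeq2 and 4 to 8 without 1 library. For R1 against H1 it was 1, with 0 under upper-quartile factors, library size only, DESeq2 and no filter on low counts, and 0 to 1 without 1 library. For R6 against R1 it was 3, with 1 to 3 without 1 library, and for R18 against R6 it was 7, with 5 to 7.

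Deviations of same-numbered libraries correlated at -0.0362 to 0.0443 over 11747 genes, so no pairing by replicate number was seen. This check, on 2 libraries a group, cannot tell whether libraries were handled in pairs. With the replicate block, the number of clock genes called for R18 against untreated was 4 and not 8 (PER2, CRY2, DBP and BHLHE40 were lost), and in the other comparisons the count was as without it. Where leaving out a library left a group with 1, that library was assumed to vary like the others. Depth limits NR1D1 most, with 10 to 80 counts a library, where each read of a pair was counted as 1. R18 cannot be checked by leaving its library out. The causes of these changes were not tested.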
